A study of Homo sapiens with 6 samples.

Results

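The genes described here are 38 genes of the lysosome and its transcriptional control, followed in PANC-1 cells, an established line from a human pancreatic ductal carcinoma, with and without knockdown of RRM2. They were taken by name from a list of 20 hydrolases, 3 soluble proteins without enzyme activity of their own, 8 membrane proteins, 4 genes of the proton pump and its assembly, and the 3 transcription factors TFEB, TFE3 and MITF. All 38 were found among the 42902 Gene IDs of the count table, and all 38 passed the filter on low counts that left 15866 genes for testing. The control group, shNC, is labelled wild type with a control hairpin (shControl), and the other group, shRRM2, is labelled by genotype and treatment as shRRM2, with 3 polyadenylated RNA libraries in each. No further treatment or time is given, and all 6 libraries come from this 1 cell line. Neither the number of hairpins nor the origin of the replicate libraries (separate cultures or 1) is given, so p-values reflect only how far these libraries vary, possibly for technical reasons. The table names the knockdown columns si-RRM2 where the labels have shRRM2.

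Total counts ran from 16606947 to 23300433 per library, so that 3 counts correspond to 0.129 to 0.181 CPM (counts divided by library size). RRM2 itself, the small subunit of ribonucleotide reductase, was at 204, 192 and 203 CPM in shNC and 40.5, 40.6 and 39.5 CPM in shRRM2 (log2 fold change −2.31, SE 0.0443, adjusted p = 3.66e-29). Of 6 markers of epithelial carcinoma cells, the keratins KRT8, KRT18 and KRT7 stood between 664 and 1669 CPM in every library, while KRT19 and EPCAM, both usually abundant in ductal carcinoma, had 22 and 53 counts over all 6 libraries and CDH1 had 182. Of the 5 tested, 4 rose (KRT8 by 0.60 and KRT18 by 0.45 on the log2 scale, and EPCAM and CDH1, both near the filter), KRT7 fell by 0.07, and the summed level went from 2573 ± 52.3 to 3381 ± 30.5 CPM, a gain of 31.4%. Levels below are CPM on TMM-scaled library sizes unless a level per length is named. Changes are given as log2 of the ratio of shRRM2 to shNC, and adjusted p is from edgeR's quasi-likelihood test with Benjamini-Hochberg adjustment over all 15866 tested genes at a threshold of 0.05. In such bulk libraries, a change in the share of cells that express a gene and a change in RNA per cell cannot be told apart.

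Lysosomes are acidic compartments in which proteins, glycans and lipids from endocytosis and autophagy are broken down. Soluble hydrolases reach them mostly by the mannose 6-phosphate receptors, heavily glycosylated membrane proteins line them, and a vacuolar ATPase with a membrane sector (V0) and a cytosolic sector (V1) pumps in protons. TFEB, TFE3 and MITF are related basic helix-loop-helix leucine zipper factors that bind E-box words, and many lysosomal promoters carry an extended E-box known as the CLEAR element. These factors are held in the cytoplasm when mTORC1 phosphorylates them at the lysosomal surface, so their activity is set largely by location and is not read directly from their RNA.

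The members' promoters that hold an 8-base palindromic CLEAR word are shown first, since its bearers fell on both sides of the comparison below. Promoter sequences (250 bases before to 50 after the annotated start, RefSeq, GRCh38.p14) were matched for 28 of the 38 genes. The other 10 were CTSB, CTSK, CTSS, HEXA, NAGLU, SGSH, ASAH1, PSAP, LAMP2 and ATP6V1H. The word TCACGTGA occurred in 5 of the 28, and 8 windows of 30 bases around it are printed 5′ to 3′ on the gene's strand, with the word in capitals.
CTSA, chr20:45891298-45891327, plus strand: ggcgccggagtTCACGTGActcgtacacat
GAA, upstream copy, chr17:80101493-80101522, plus strand: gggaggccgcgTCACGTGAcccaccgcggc
GAA, downstream copy, chr17:80101538-80101567, plus strand: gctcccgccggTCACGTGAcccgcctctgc
LAMP1, upstream copy, chr13:113297199-113297228, plus strand: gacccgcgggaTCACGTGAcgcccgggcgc
LAMP1, downstream copy, chr13:113297226-113297255, plus strand: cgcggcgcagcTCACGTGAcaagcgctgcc
MCOLN1, upstream copy, chr19:7522571-7522600, plus strand: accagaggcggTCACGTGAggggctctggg
MCOLN1, downstream copy, chr19:7522598-7522627, plus strand: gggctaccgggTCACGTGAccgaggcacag
ATP6V0D1, chr16:67481199-67481228, minus strand: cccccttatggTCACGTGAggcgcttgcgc

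Most of the lysosomal genes were higher in the knockdown. Of the 38, 26 rose, 5 fell and 7 did not pass the test, where 26.0% of all tested genes were called higher and 26.1% lower (52.1% in either direction). The median of the 38 was 0.29, against −0.01 over all tested genes. Their counts together made up 0.571% to 0.579% of a library in shNC and 0.751% to 0.756% in shRRM2, and their summed level went from 5835 ± 80.7 to 7436 ± 11.6 CPM (SD, n = 3 each). Most rises were small: 15 of the 26 were under 0.4. At least 2-fold changes were seen in 3 of the 38 genes, GPNMB and CD68 upward and VMA21 downward. Over all tested genes, 6.66% changed at least 2-fold, called or not. The median absolute log2 fold change was 0.35 for the 38 and 0.26 over all tested genes. The groups did not overlap for 33 of the 38 genes, 28 of them higher and 5 lower in shRRM2, against 29.2% and 28.6% of all tested genes. Of the 38, 35 were above the median CPM of tested genes, and SEs were smaller in abundant genes (0.0257 for PSAP, 0.373 for CTSK). The shares of all tested genes are not matched for level, and a comparison with genes of like level was not tested.

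**Figure D1:**
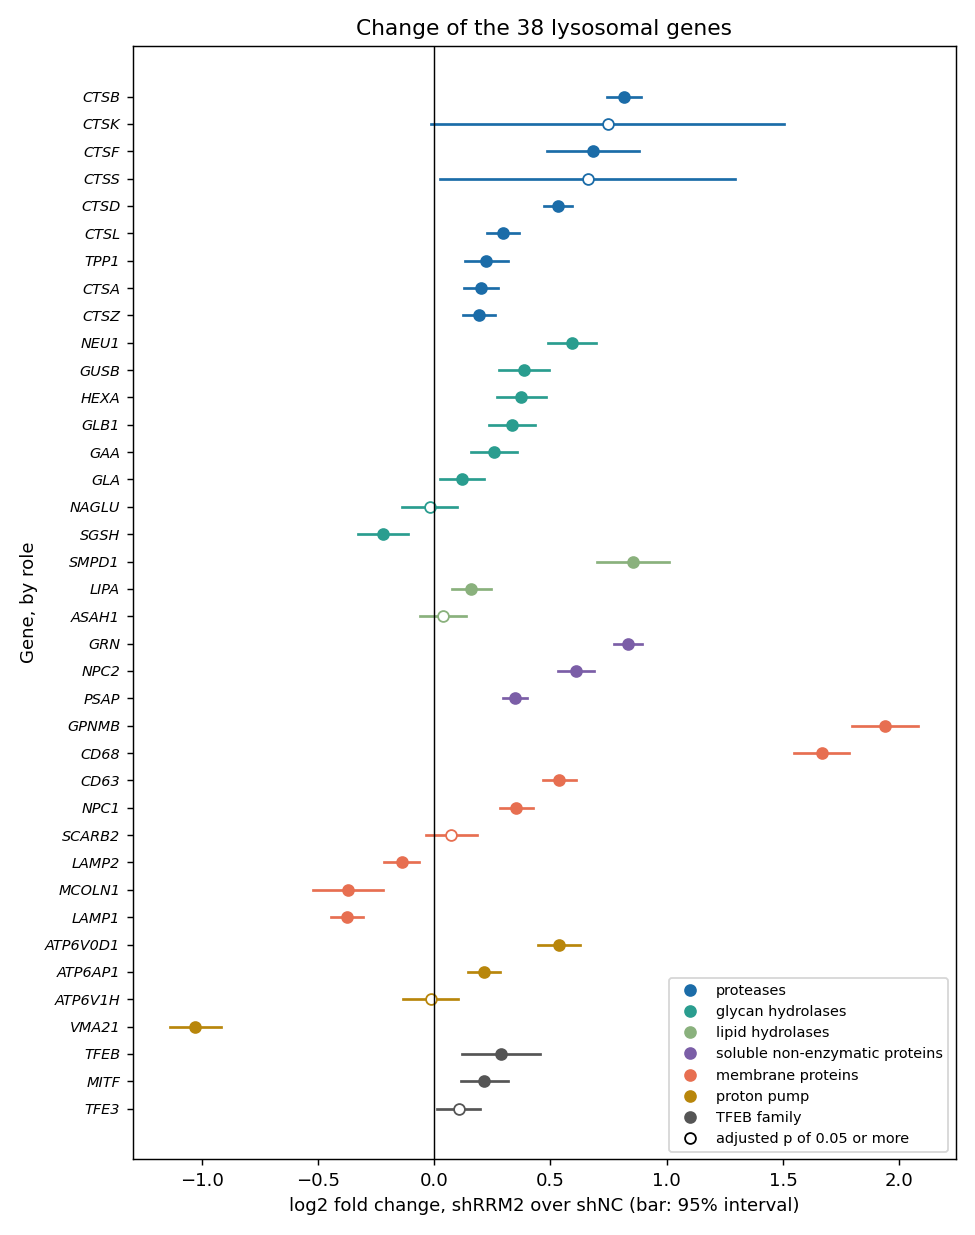
Log2 fold change of each of the 38 genes (shRRM2 over shNC, 3 libraries each), ordered within role, with 95% intervals as bars; open circles did not pass an adjusted p of 0.05. Proteases, glycan hydrolases and soluble proteins lie mostly right of 0, membrane proteins lie on both sides, and VMA21 stands farthest to the left at −1.03.

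The summed rise was carried by a few abundant transcripts. The net gain of the 38 was 1601 CPM, and PSAP, GRN, CD63 and CTSD made up 66.9% of it. PSAP alone, which encodes the precursor of the saposins that help enzymes reach sphingolipids, gave 23.1%. GRN, which encodes progranulin, the precursor of the granulin peptides, gave 21.1%. CD68 and GPNMB, which had the largest fold changes, gave 3.53% and 2.79%, and without these 2 genes 24 of 36 rose and 5 fell. The losses summed to −162 CPM, mostly from LAMP1 and VMA21.

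Among the 9 proteases, 7 rose (77.8%) and 0 fell, with a median of 0.53, beside 26.0% higher and 26.1% lower of all tested genes. Cathepsin B (CTSB, Gene ID 1508, chromosome 8, 11842524 to 11868087, GRCh38), a cysteine protease, was at 122, 122 and 124 CPM in the shNC libraries and 217, 219.8 and 211 CPM in the shRRM2 libraries. The groups lay well apart, with a rise of 0.82 on the log2 scale (SE 0.0362, adjusted p = 4.78e-19). CTSD, the main aspartic protease of the lysosome, was at 415, 412 and 396 CPM in shNC and 593, 581 and 595 CPM in shRRM2 (0.53, SE 0.0299). Every knockdown library was above every control library here too. CTSF, a papain-type cysteine protease at a much lower count, went from 13.9 ± 0.345 to 22.3 ± 2.34 CPM (0.68, adjusted p = 3.39e-07).

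The more abundant remaining proteases changed less. CTSL, a cysteine endopeptidase, rose by 0.30 (95% interval 0.23 to 0.36), TPP1, a tripeptidyl peptidase, by 0.22 (0.13 to 0.32), CTSA, a carboxypeptidase that also protects beta-galactosidase and neuraminidase, by 0.20 (0.13 to 0.27), and CTSZ, a carboxypeptidase, by 0.19 (0.13 to 0.26). CTSK, best known from osteoclasts, and CTSS, best known from antigen-presenting cells, were close to the filter with 125 and 184 counts over all 6 libraries. CTSK was at 0.685, 0.693 and 1.15 CPM in shNC and 0.961, 1.46 and 1.77 CPM in shRRM2, and the groups overlapped (0.75, adjusted p = 0.0939). CTSS was at 0.913, 1.60 and 1.21 CPM and 2.60, 1.61 and 1.82 CPM (0.66, adjusted p = 0.0752), with groups that just failed to overlap. CTSS passed without shNC replicate 2 (0.91, adjusted p = 0.0442) or without shRRM2 replicate 2 (0.81, adjusted p = 0.0429), and stood at 0.44 in the lowest of the alternatives. In GENCODE's models CTSD shares 41.7% of its exon bases with a read-through gene on the same strand, and CTSA shares 17.7% with NEURL2 on the opposite strand, which stood at 2.08 and 2.94 CPM.

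Of the 8 glycan hydrolases, 6 rose (75%) and 1 fell (12.5%), beside 26.0% and 26.1% of all tested genes. NEU1, the lysosomal sialidase, changed most, from 56.6, 60.9 and 61.7 CPM in shNC to 93.5, 90.0 and 86.8 CPM in shRRM2 (0.59, SE 0.0504, adjusted p = 6.98e-12). GUSB, beta-glucuronidase, rose by 0.39, HEXA, the alpha subunit of beta-hexosaminidase, by 0.38, GLB1, beta-galactosidase, by 0.33, and GAA, the acid alpha-glucosidase that degrades glycogen, by 0.26, with SEs of 0.0484 to 0.0525. For all of these the lowest knockdown library was above the highest control library. The rise of GLA, alpha-galactosidase A, was the smallest that passed, from 79.3 ± 2.20 to 86.1 ± 0.99 CPM (0.12, adjusted p = 0.0285). It did not pass without shNC replicate 1 or 2 or without shRRM2 replicate 1 or 2 (0.10 to 0.13, adjusted p = 0.0513 to 0.133). GUSB has many pseudogene copies, the most counted of which, GUSBP11, had 1857 counts over all libraries against 7363 for GUSB, so shared reads leave its value less certain.

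Of the members that act on heparan sulfate, GUSB rose, as given above, while the more specific SGSH and NAGLU did not rise. SGSH, the heparan N-sulfatase, fell from 75.3, 76.4 and 83.2 CPM in shNC to 70.1, 63.6 and 68.0 CPM in shRRM2 (−0.22, adjusted p = 0.000641), and its groups did not overlap. NAGLU, the alpha-N-acetylglucosaminidase, was at 51.6 ± 2.22 and 50.9 ± 2.22 CPM, and the 95% interval of its log2 fold change was −0.14 to 0.10 (adjusted p = 0.794). Outside the 38, HGSNAT, the acetyltransferase of that breakdown route, was at 0.04 (adjusted p = 0.628). IDS, the iduronate sulfatase, fell by 0.39, and IDUA was at −0.01 (adjusted p = 0.969). IDS, IDUA, HGSNAT and this grouping were chosen after their values were seen, and the grouping was not tested.

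SMPD1, acid sphingomyelinase, which cleaves sphingomyelin to ceramide, had the largest log2 fold change of the 20 hydrolases. It was at 18.8, 20.8 and 21.5 CPM in shNC and 37.3, 35.4 and 37.7 CPM in shRRM2, with no overlap (0.85, SE 0.0766, adjusted p = 2.39e-11). LIPA, acid lipase for cholesteryl esters and triglycerides, rose by 0.16 (adjusted p = 0.00169); 1.32% of its exon bases lie opposite exons of IFIT2, which went from 4.13 to 14.0 CPM, and the part of such reads was not tested. ASAH1, acid ceramidase, the next enzyme after SMPD1, was at 88.6 ± 3.91 and 90.8 ± 5.83 CPM, with overlapping groups and an interval of −0.06 to 0.14 (adjusted p = 0.546).

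The 3 soluble proteins without enzyme activity all rose, beside 26.0% of all tested genes called higher and 26.1% lower. GRN was at 436, 442 and 414 CPM in shNC and 766, 770.4 and 769.5 CPM in shRRM2 (Gene ID 2896, chromosome 17, 44345302 to 44353106; 0.83, SE 0.0299, adjusted p = 1.30e-21). The knockdown libraries lay within a few CPM of each other and far above every control library. NPC2, the lumenal carrier that hands cholesterol to NPC1, went from 144 ± 4.49 to 220.4 ± 9.14 CPM (0.61, SE 0.0381). PSAP, the most abundant of the 38, was at 1373, 1349 and 1330.3 CPM and 1721, 1724 and 1714 CPM (0.35, SE 0.0257).

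The 8 membrane proteins split, with 4 higher (50%) and 3 lower (37.5%), beside 26.0% and 26.1% of all tested genes. GPNMB, a glycoprotein of melanosomes and of lysosomes in macrophages and osteoclasts, had the largest change of all 38 (Gene ID 10457, chromosome 7, 23246775 to 23275108). It was at 16.7, 14.9 and 16.0 CPM in shNC and 59.4, 62.3 and 60.0 CPM in shRRM2, a 3.83-fold rise (log2 1.94, SE 0.07, adjusted p = 1.49e-21). CD68, a LAMP-family protein used as a macrophage marker, was at 26.4, 26.3 and 25.2 CPM and 80.4, 83.6 and 83.5 CPM, a 3.17-fold rise (log2 1.67, SE 0.0576, adjusted p = 4.52e-22). In both genes the 3 control libraries lay close together and far below the knockdown libraries. CD63, a tetraspanin of late endosomes and exosomes, was at 406, 413 and 395 CPM and 563, 627 and 574 CPM (0.54, SE 0.0343), the highest value being in shRRM2 replicate 2. NPC1, the cholesterol exporter of the limiting membrane, rose by 0.35 (SE 0.0356).

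The 3 that fell were LAMP1, LAMP2 and MCOLN1. LAMP1, a heavily glycosylated protein of the limiting membrane like LAMP2, was at 345, 341 and 324 CPM in shNC and 258, 269 and 252 CPM in shRRM2 (−0.37, SE 0.0341, adjusted p = 3.50e-11), and LAMP2 at 184, 182 and 186 CPM and 175, 160.5 and 165 CPM (−0.14, adjusted p = 0.00201). In both, every knockdown library was below every control library. MCOLN1, the lysosomal calcium channel also called TRPML1, fell from 35.4 ± 1.75 to 27.4 ± 2.18 CPM (−0.37, adjusted p = 7.92e-05). SCARB2, also called LIMP-2, the receptor that carries glucocerebrosidase to lysosomes, was at 58.7 ± 2.98 and 61.7 ± 0.677 CPM (0.07, adjusted p = 0.26).

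Since CD68, GPNMB, CTSS, CTSK and MITF are also read as markers of other cell types, the lists of those types were set beside them. Of 10 macrophage markers, 9 were below the filter, and AIF1, TYROBP and CD163 had 0 counts in every library. Their summed level was 1.52 to 2.06 CPM in shNC and 3.84 to 5.35 CPM in shRRM2, against a rise of 56.6 CPM in CD68. The single tested one, CSF1R, the receptor of colony-stimulating factor 1, went from 1.20, 0.953 and 0.849 to 3.45, 4.27 and 4.52 CPM (2.02, adjusted p = 4.60e-08). Of 6 osteoclast markers, OCSTAMP and DCSTAMP had 0 counts and 3 were tested. TNFRSF11A rose by 0.80 and NFATC1 by 0.60, MMP9 was at 0.856 and 0.328 CPM (−1.32, adjusted p = 0.0515), and the summed level was 10.1 to 11.8 CPM against 16.0 to 17.5 CPM. Of 6 melanocyte markers, TYR had 0 counts, 5 were below the filter, PMEL rose by 0.83 from about 1 CPM, and the summed level was 1.37 to 2.12 CPM against 1.56 to 2.81 CPM. CD68 shares 81.7% of its exon bases with a GENCODE transcript model on the same strand, so its reads could belong to either model.

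**Figure D2:**
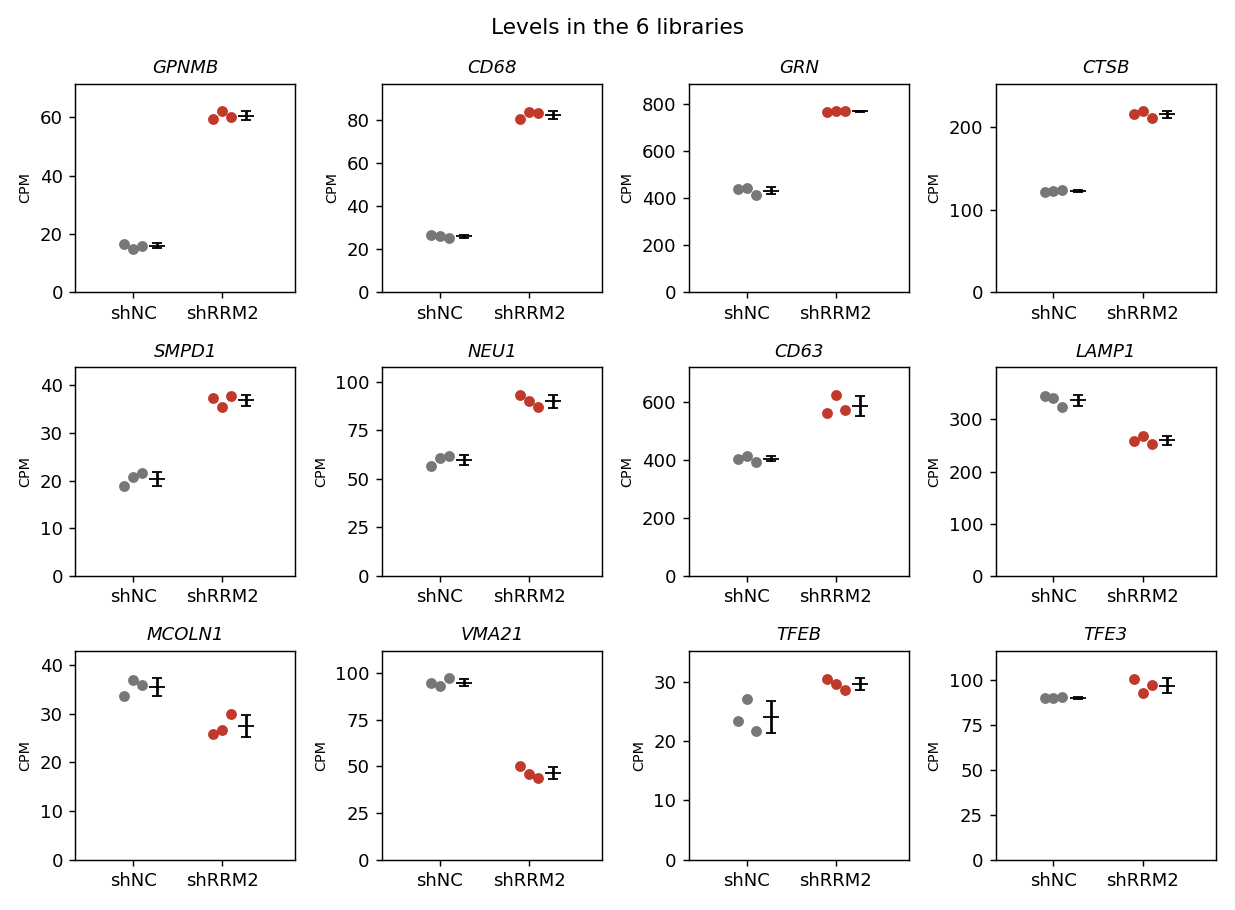
CPM of 12 of the genes in each library (grey shNC, red shRRM2), with the mean and SD of 3 libraries beside the points; each axis starts at 0. GPNMB and CD68 show the widest gaps, LAMP1, MCOLN1 and VMA21 are lower in every shRRM2 library, and TFE3 is nearly level.

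The 4 proton pump genes went in different directions. VMA21, a chaperone of V0 sector assembly in the endoplasmic reticulum, fell to 0.491 of its control level (Gene ID 203547, chromosome X, 151396595 to 151409364). It was at 94.4, 93.2 and 97.1 CPM in shNC and 50.1, 46.1 and 43.5 CPM in shRRM2 (−1.03, SE 0.0533, adjusted p = 2.96e-17). ATP6V0D1, the d subunit of V0, rose from 72.5 ± 1.78 to 105 ± 1.51 CPM (0.54, SE 0.045), and ATP6AP1, an accessory subunit, by 0.21. ATP6V1H, the H subunit of V1, was at 48.8 ± 1.67 and 48.3 ± 1.71 CPM with an interval of −0.13 to 0.10 (adjusted p = 0.851).

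The other subunits of the pump were as mixed. Of 22 on the list, 19 passed the filter, 10 rose and 5 fell, with a median of 0.15. The share that rose was 52.6% and the share that fell 26.3%, beside 26.0% and 26.1% of all tested genes. The largest rise was in ATP6V0A4, the a4 form of the V0 a subunit known from kidney and inner ear, at 2.85, 2.56 and 2.00 CPM in shNC and 11.1, 10.1 and 8.83 CPM in shRRM2 (2.01, adjusted p = 6.13e-12). ATP6V0A2, the a2 form, fell from 42.7 ± 0.5 to 28.6 ± 1.76 CPM (−0.58, SE 0.0681). Chosen after their values were seen, the a1 form ATP6V0A1 rose by 0.30 and the a3 form TCIRG1 fell by 0.21, so the 4 forms of this subunit divided evenly. ATP6V1F, the F subunit of V1, rose by 0.64, and ATP6V0E2 fell by 0.50.

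Among the transcription factors, TFEB and MITF rose by small amounts. TFEB was at 23.4, 27.1 and 21.7 CPM in shNC and 30.6, 29.6 and 28.6 CPM in shRRM2 (0.29, SE 0.0822, adjusted p = 0.00354), with the second control library closest to the knockdown libraries. MITF was at 67.2, 67.9 and 72.9 CPM and 82.3, 77.1 and 82.0 CPM (0.22, SE 0.0501, adjusted p = 0.000479). TFE3, the most abundant of the 3 in CPM and per length, was at 89.7, 89.9 and 90.3 CPM and 101, 92.5 and 97.3 CPM (0.10, adjusted p = 0.0506), just short of the threshold. It passed with RLE factors, with library size alone, with the filter of 1 CPM and without shRRM2 replicate 2 (0.11 to 0.14, adjusted p = 0.00895 to 0.0448). Chosen after its values were seen, TFEC, the fourth member of this family, went from 0.114, 0.0866 and 0.303 to 0.565, 1.21 and 1.71 CPM (2.82, adjusted p = 9.17e-05), with only 74 counts in all.

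Of 17 genes listed for the control of TFEB by mTORC1, TFEC included, 16 were tested, 7 rose and 3 fell. These were 43.8% and 18.8% of those tested, beside 26.0% and 26.1% of all tested genes. FNIP2 and FLCN, partners in the folliculin complex that acts on the Rag GTPases, rose by 0.85 (from 16.5 ± 0.888 to 29.5 ± 2.02 CPM) and 0.34 (from 39.0 ± 1.30 to 49.2 ± 1.70 CPM). LAMTOR5, of the Ragulator complex, fell by 0.30, and MLST8, an mTOR complex subunit, by 0.27. RRAGD had 0 counts in every library, which allows up to 0.181 CPM in the shallowest one.

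Compared per length of exon (CPM per kilobase, on GENCODE exon lengths), the levels of the 38 genes in shNC ran from 0.294 ± 0.0818 for CTSS upward. PSAP stood highest, at 417 ± 6.56 in shNC and 531 ± 1.56 in shRRM2, followed in shNC by CD63 at 154 ± 3.42, CTSD at 130.4 ± 3.33 and GRN at 117 ± 4.02. In shRRM2 GRN, at 209 ± 0.64, was above CTSD, at 189 ± 2.37. CD68 moved from rank 24 to rank 12, GPNMB from 36 to 27 and VMA21 from 15 to 30. CTSK and CTSS stayed last in both groups at under 1 CPM per kilobase. TFE3 was at 21.0 ± 0.0741, MITF at 9.66 ± 0.434 and TFEB at 4.26 ± 0.489 in shNC.

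**Figure D3:**
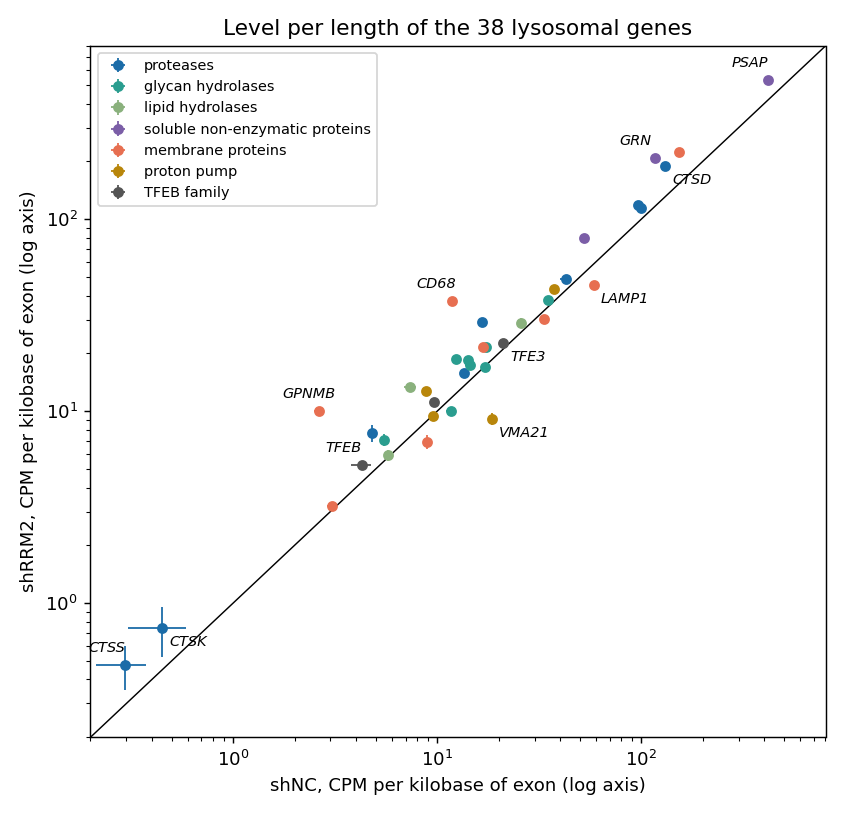
Mean level per kilobase of exon of each of the 38 genes in shNC and in shRRM2, both axes logarithmic, with bars for the SD of 3 libraries and a line of equal level. PSAP is at the top right, CD68 and GPNMB lie farthest above the line, and VMA21 lies farthest below it.

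Outside the 38, 29 genes were listed as other hydrolases, among them the activator GM2A and the acetyltransferase HGSNAT, which are not hydrolases. Of the 29, 26 were tested, 17 rose (65.4%) and 2 fell (7.69%), with a median of 0.29, beside 26.0% and 26.1% of all tested genes. GM2A, the activator that presents GM2 ganglioside to beta-hexosaminidase, was at 29.7, 29.4 and 28.6 CPM in shNC and 69.6, 67.3 and 62.8 CPM in shRRM2 (1.19, SE 0.0609). CTSC, dipeptidyl peptidase I, rose from 3.63 ± 0.232 to 7.34 ± 0.557 CPM (1.02), and SCPEP1, a serine carboxypeptidase, from 31.5 ± 2.63 to 57.3 ± 2.53 CPM (0.86).

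Of 21 other lysosomal membrane proteins tested, 8 rose (38.1%) and 4 fell (19%), beside 26.0% and 26.1% of all tested genes. The median of the list was 0.01, against −0.01 over all tested genes. At an adjusted p of 0.01 the 4 lower ones became 1. PLD3, an exonuclease of the lysosomal lumen made as a membrane protein, went from 145 ± 6.27 to 246 ± 5.30 CPM (0.76), TMEM175, a potassium and proton channel, rose by 0.62, STARD3, a cholesterol transfer protein, by 0.50, and CLN3 by 0.40. Of 15 sorting genes, 7 rose (46.7%) and 3 fell (20%), beside the same 26.0% and 26.1%. AP1S1, AP1B1 and AP1M1 of the clathrin adaptor AP-1 were at 0.38, 0.33 and 0.20 and the sorting receptor SORT1 at 0.22. The difference between lists was not tested.

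Of 21 autophagy genes, 11 rose (52.4%) and 5 fell (23.8%), with a median of 0.25, beside 26.0% and 26.1% of all tested genes. The selective receptors divided. SQSTM1 (p62), the most abundant of the list in CPM, fell from 863, 883 and 867 CPM in shNC to 478, 483 and 458 CPM in shRRM2 (−0.88, SE 0.0292, adjusted p = 1.42e-22). OPTN rose from 50.3 ± 2.29 to 83.7 ± 0.887 CPM (0.74), NBR1 from 158 ± 8.85 to 229 ± 2.49 CPM (0.53) and TAX1BP1 from 139 ± 4.11 to 201 ± 2.20 CPM (0.53). With SQSTM1 included, the summed level of the list was 2202 ± 26.5 CPM in shNC and 2089 ± 13.8 CPM in shRRM2, although more of its genes rose than fell. None of the 9 cystatins, inhibitors of cysteine cathepsins, passed in edgeR, where 2 were tested. At an unadjusted p under 0.05 there was 1, and DESeq2 and limma-voom called 0. Named outside the rule for named genes, CSTB was at 151 ± 3.41 and 142 ± 9.10 CPM and CST3 at 71.9 ± 2.08 and 73.9 ± 0.927 CPM.

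**Figure D4:**
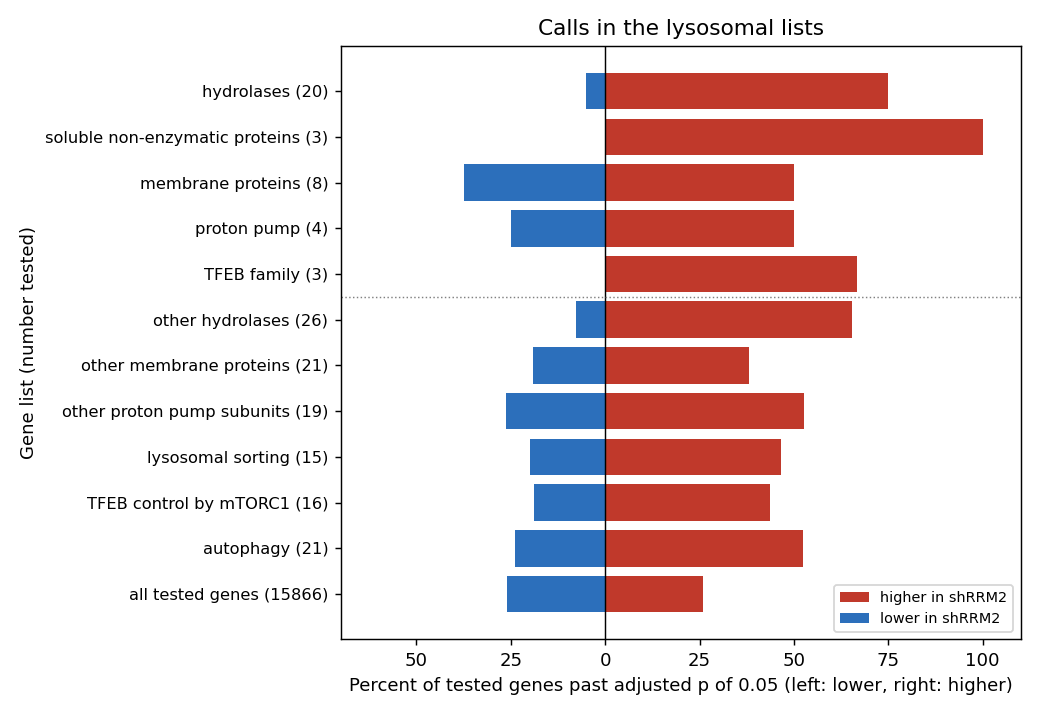
Share of tested genes called higher (right, red) and lower (left, blue) in shRRM2 for each list, with the number tested in brackets; the dotted line separates the groups of the 38 genes from the other lists, and the last bar is all tested genes, at 26.0% and 26.1%. The hydrolases of the 38 and the list named other hydrolases, which also holds GM2A and HGSNAT, have the longest right and shortest left bars among the lists of 15 or more genes.

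The E-box words of the promoters shown above occurred in genes that rose and in genes that fell. The core CACGTG occurred in 9 of the 28 promoters (32.1%), against 10.1% of the promoters of tested genes, the longer TCACGTGA in 5 (17.9% against 1.84%) and that word with G before and C after it in 2, GAA and MCOLN1 (7.14% against 0.735%). Each word is its own reverse complement, so both strands are covered, and each longer word contains the shorter. Of the 5 genes with TCACGTGA, CTSA, GAA and ATP6V0D1 rose and LAMP1 and MCOLN1 fell. LAMP1 had the most copies of the core, 6, and CTSA, CTSF, GAA and MCOLN1 each had 2. Of the 9 genes with the core, 7 rose and 2 fell, the others being CTSD, CTSF, NEU1 and CD63, and of the 19 without it 16 rose and 1 fell. Over all tested genes with a promoter sequence, 24.8% of those with the core were called higher and 33.0% lower. Without the core the shares were 28.2% and 26.8%, and with TCACGTGA 25.6% and 32.1%. None of the promoters of TFEB, TFE3 and MITF held the core in this window.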

How the data were processed

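Polyadenylated RNA of PANC-1 cells was sequenced in 3 shNC and 3 shRRM2 libraries made with a directional kit, per the labels' protocols. The authors deposited raw read counts, whole numbers, for each NCBI Gene ID. Fastp 0.23.4, featureCounts and the hg38 build are named in the submitters' processing notes; for the aligner, annotation release, strand setting and multi-mapped reads, the sources used here name nothing. Unstranded or shared counting would mix reads of overlapping genes, and 14 of the 38 genes share exon bases with another GENCODE gene. IDs were matched to RefSeq symbols for 40120 of 42902, and 0 sample columns were left unmapped.

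Genes were kept with edgeR's filterByExpr, scaled with TMM and tested with edgeR 4.0.16 in R 4.3.3 (robust quasi-likelihood, group alone, two-sided, Benjamini-Hochberg over 15866 genes, threshold 0.05). SE was taken as |log2 fold change| over the root of F. An exact permutation test of 3 against 3 cannot give p below 0.1, so none was used. As alternatives, DESeq2 1.42.0 and limma-voom (limma 3.58.1) were run, scaling used RLE or library size alone, the filter was dropped or set to 1 CPM in 3 libraries, each library was left out, replicate numbers entered as a block, and the threshold was 0.01. Exon lengths are unions of GENCODE release models on GRCh38.

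The 38 genes and all lists (other hydrolases, other membrane proteins, other proton pump subunits, sorting, mTORC1 control, autophagy, cystatins, and macrophage, osteoclast, melanocyte and epithelial carcinoma markers) were chosen with earlier results of these data known. Named were RRM2, all 38 genes and the marker genes by count or range. Of each other list, up to 4 genes with the largest absolute log2 fold change, in either direction, were named. These were taken from genes past the threshold at a mean of 5 CPM or more. Genes named outside this rule are marked or stand beside a member they overlap. A gene that this rule would name is not reported here.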

Additional observations from a re-analysis of the deposited data

How the results depend on the processing

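Of the 38 genes and RRM2, 34 kept their direction and their side of the threshold in all 13 other fits. The exceptions were GLA, CTSS and TFE3, given above, and NAGLU and ATP6V1H, which never passed. Their log2 fold changes of −0.02 and −0.01 became 0.017 and 0.023 with library size alone. On leaving out 1 library they ran from −0.049 to 0.021 for NAGLU and from −0.038 to 0.016 for ATP6V1H, with a positive sign without shNC replicate 1 in both, shRRM2 replicate 2 in NAGLU and shRRM2 replicate 1 in ATP6V1H; the cause was not tested. Among the other genes not called, leaving out 1 library gave 0.0013 to 0.089 for ASAH1 (lowest without shRRM2 replicate 2) and 0.042 to 0.11 for SCARB2 (lowest without shNC replicate 2). Across these fits 25 to 27 of the 38 rose and 5 fell, and at an adjusted p of 0.01 25 rose and 5 fell. Leaving out 1 library gave 30 to 32 calls. Of the sorting genes, 5 to 9 rose and 0 to 3 fell, and of the other membrane proteins 8 to 9 rose and 1 to 5 fell. For the cystatins, 0 to 1 passed on leaving out 1 library. Library size alone moved the median gene by 0.04.

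Replicate numbers are shared between the groups, but deviations of same-numbered libraries were correlated at −0.02 to −0.01, so the numbers gave no sign of pairing. With the replicate block 26 of the 38 rose and 5 fell, and 1 cystatin passed, lower, where 0 did without it; RRM2 was at −2.31. At these depths a gene near 1 CPM, such as CTSK or CTSS, had an interval wider than 1 on the log2 scale.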

Other observations

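Beyond the lysosomal genes, promoters with an E-box were counted over all tested genes with a promoter sequence. Of 1184 with CACGTG, 24.8% were called higher and 33.0% lower in shRRM2 (median log2 fold change −0.04), and of 10517 without it 28.2% were higher and 26.8% lower (median 0.01). With TCACGTGA the shares were 25.6% higher and 32.1% lower of 215 genes. These shares were not tested, and the lysosomal genes are among the genes counted.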
